A study of Arabidopsis thaliana with 26 samples.

Results

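The response of the Arabidopsis thaliana line sf2 to 24 h at 4 °C was measured by setting its 2 cold arrays against its 2 untreated arrays. These are 4 of the 26 arrays of the series, and they were chosen by the line and treatment in their labels, with no use of measured values. The study placed RNA from plants carrying the sfr2, sfr3 or sfr6 mutation, named for sensitivity to freezing, and from wild type beside each other under stresses that remove water from cells. Each sample pooled 18 plants, and its RNA was labelled with biotin and hybridised to 1 Affymetrix ATH1 array.

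The sf2 line is an EMS mutant (made with the chemical mutagen ethyl methanesulfonate) in the col-0 ecotype, and its untreated group was grown on agar at 21 °C and 100% humidity under continuous light. Its cold group was grown in the same way and then kept for 24 h at 4 °C under continuous light of 100 microEinsteins. The EMS mutants sf6 and sf3 and the wild type, stock N1092, all in col-0, were each measured untreated and after the same cold, with 2 arrays in each group. Drought-treated groups of wt and sf6 (2 h), also with 2 arrays each, entered the fits only for the estimate of the spread. All aerial tissue was taken. Nothing in the labels says whether the 2 arrays of a group came from separate cultures, so each p-value measures the spread between arrays, which may be technical. The sfr2 gene has no probe set named in the annotation used here, so its own transcript gives no check of the genotype.

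Cold acclimation is the rise in freezing tolerance that follows days at low, nonfreezing temperature. In Arabidopsis, cold activates CBF transcription factors, which turn on the COR and dehydrin genes, whose hydrophilic products protect membranes and proteins as cells lose water to extracellular ice. SFR2 itself encodes a galactolipid-remodelling enzyme of the outer chloroplast envelope that acts when that membrane is stressed by freezing, after acclimation has run.

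Intensities are on a linear scale with a common level on every array, and changes are differences of log2(intensity + 16), cold minus control. On that scale a change in a dim gene is understated. A probe set was called changed when its adjusted p in limma (Benjamini-Hochberg over all 17059 probe sets tested) was below 0.05. Each SE and p-value rests on a spread that limma estimated over all groups fitted, not on the sf2 arrays alone. The arrays named beside an SE are those whose means were compared. In sf2, 7285 probe sets (42.7%) were called, 3377 higher (19.8%) and 3908 lower (22.9%), and 8468 had an unadjusted p below 0.05. A call was thus common, and so were groups that did not overlap, with both cold arrays on 1 side of both control arrays for 12458 probe sets (73.0%). The median change of all probe sets was -0.018. Calls with a change of at least 2-fold were fewer, at 841 higher (4.93%) and 801 lower (4.7%). Of these larger calls, 824 (98%) and 783 (97.8%) were also made in each of the 4 fits that left out 1 sf2 array, against 62.7% of all higher and 59.6% of all lower calls. In pooled aerial tissue, fewer cells of a type and less RNA per cell cannot be told apart.

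Among probe sets that name 1 gene, the 12 largest rises were led by a locus that was almost dark without cold. AT1G16850 had intensities of 2.3 and 3.5 on the control arrays and of 879.9 and 978.8 on the cold arrays, a log2 change of 5.64 ± 0.18 (SE, 2 arrays against 2; limma adjusted p = 6.84e-13). AT1G51090 went from 14.3 and 16.7 to 714.6 and 785.0 (log2 change 4.60). Neither locus has a symbol in the annotation. BETA-VPE, a vacuolar processing enzyme that cleaves vacuolar proteins, went from 32.6 and 42.5 to 517.9 and 461.2 (log2 change 3.24). In all 12 the cold and control arrays lay far apart, and every call held without any 1 sf2 array.

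EXPA8, an expansin that loosens the cell wall, headed the 12 largest falls. Its intensities were 392.8 and 494.1 on the control arrays and 12.7 and 13.7 on the cold arrays, a log2 change of -3.97 ± 0.22 (SE, 2 arrays against 2; limma adjusted p = 5.76e-10). AT1G51400 fell from 2514.4 and 2283.0 to 169.4 and 168.3 (log2 change -3.71), so a transcript among the brightest of untreated shoots became a moderate one. AT5G14120 fell from 1172.5 and 1078.6 to 117.8 and 93.7 (log2 change -3.23). AT1G13650 dropped from 149.2 and 118.3 to 1.5 and 2.2, and its log2 change of -3.06 depends on the constant added before the logarithm, being -5.56 with 1 and -1.58 with 64. Adding 64 also brought AT3G06070 from -3.03 to -1.83, and among the rises AT1G11210 from 3.96 to 2.45 and AT2G16890 from 3.69 to 2.45.

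**Figure D1:**
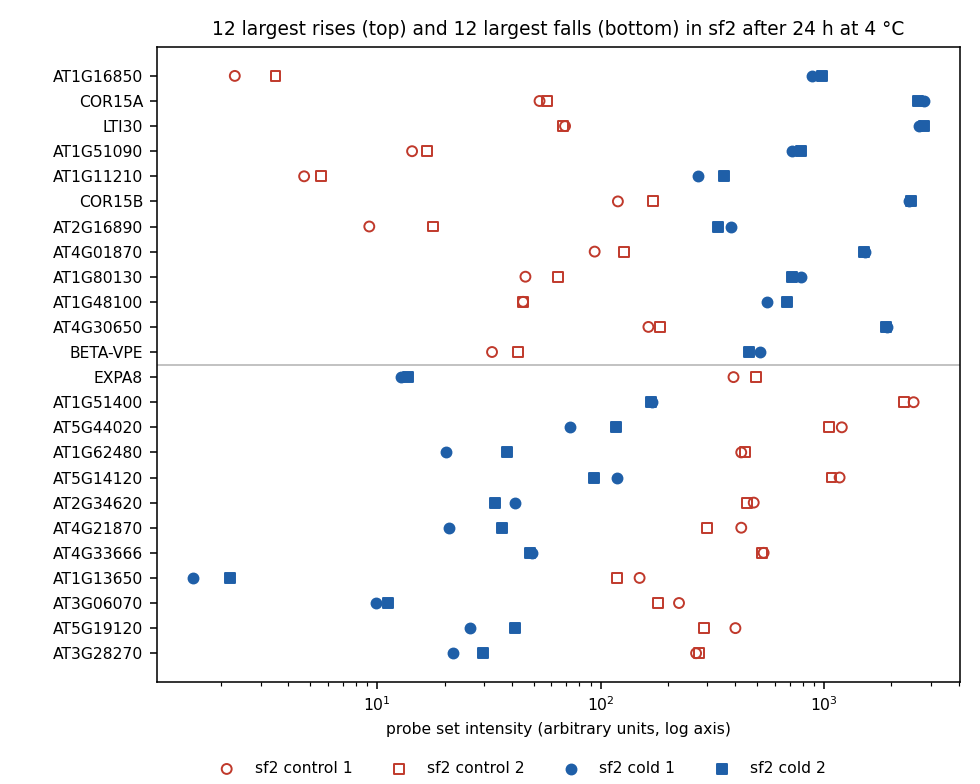
Intensity (arbitrary units, log axis) on each sf2 array of 12 strongly raised and 12 strongly lowered genes, control in open and cold in filled symbols. Cold and control points are apart for every gene, and replicate points of the bright groups nearly coincide, as for COR15A at 2794.8 and 2620.9 in the cold.

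The gene lists from here on, and their members, were chosen with earlier results of these data known. Their counts describe those members and are not independent evidence about a pathway. Every count stands beside the shares over all probe sets, 19.8% called higher and 22.9% called lower. Transcripts of cold-regulated and LEA (late embryogenesis abundant) proteins rose. Of 9 members tested, 7 rose, 1 fell and 1 did not pass, with a median log2 change of 3.16. COR15A, a chloroplast-stroma protein that stabilises membranes during freezing, went from 53.2 and 57.3 to 2794.8 and 2620.9, a log2 change of 5.26 ± 0.16 (SE, 2 arrays against 2; limma adjusted p = 6.84e-13). Its neighbour COR15B went from 119.3 and 170.6 to 2396.2 and 2452.4 (3.94 ± 0.34). The dehydrin LTI30 rose from 69.2 and 67.6 to 2648.0 and 2790.8 (5.02 ± 0.18), and the dehydrin COR47 from 264.7 and 342.1 to 2623.4 and 3013.8 (3.16 ± 0.16). In the cold these probe sets stood near the top of the scale of the cold arrays, whose maxima were 3420.8 and 3250.9, so a limit of the scale on these rises was not tested.

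LEA4-5 rose from 3.0 and 4.4 to 113.3 and 173.3 (log2 change 2.99), a far lower level than that of the COR genes, although levels of different probe sets are not strictly comparable. TIL, a temperature-induced lipocalin that binds lipids at membranes, rose from 599.9 and 657.7 to 1877.9 and 1966.0 (1.59). COR27, a cold-regulated repressor linked to the circadian clock, rose from 21.2 and 21.8 to 285.0 and 359.5 (3.16). SRC2, named after a cold-regulated gene of soybean, moved the other way, from 534.6 and 478.1 to 343.6 and 333.6. Its fall of -0.56 (limma adjusted p = 0.0104) was no longer called in 2 of the 4 fits without 1 sf2 array, those without control array 1 and without cold array 2. The clock gene GI (GIGANTEA) rose from 70.9 and 64.8 to 294.7 and 473.8 (2.22 ± 0.23). Of 16 listed clock genes, only 1, GI, had a probe set named in the annotation. The same held for 1 of 10 listed cold-responsive transcription factors, STZ, so the others of both lists were not examined. STZ, a zinc-finger repressor that responds to cold and salt, had 80.8 and 58.8 before and 121.7 and 150.7 after cold, and its rise of 0.83 (limma adjusted p = 0.0106) was not called without control array 2 or without cold array 2.

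Dehydration and abscisic acid (ABA) genes were called in both directions. Of 10 tested, 5 rose, 2 fell and 3 did not pass, and the median was 0.59. Of all probe sets, 19.8% were called higher and 22.9% lower, so the share of falls was near that of all. SAT32 rose from 60.1 and 63.3 to 474.3 and 570.6 (log2 change 2.79), and RD2 from 287.9 and 348.1 to 1414.3 and 1417.9 (2.11). DI21, named for induction by drought, rose from 106.1 and 124.3 to 404.2 and 511.0 (1.85). DI19, also named for induction by drought and encoding a zinc-finger protein, fell from 1567.8 and 1691.0 to 367.3 and 497.2 (-1.89 ± 0.13; limma adjusted p = 8.7e-09). The second fall, of the linker histone HIS1-3 (-0.68; limma adjusted p = 0.0433), was called in none of the 4 fits without 1 sf2 array. The osmotin gene OSM34 did not separate the groups, with 106.1 and 175.9 before and 197.2 and 119.0 after cold.

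Flavonol and anthocyanin genes rose together, with 8 of 9 members higher, none lower and a median of 1.27. UGT78D2, a flavonoid glucosyltransferase, rose from 202.7 and 214.5 to 723.5 and 727.8 (log2 change 1.72 ± 0.11; limma adjusted p = 1.97e-09). UGT78D3, an arabinosyltransferase of the same family, rose from 1.5 and 0.7 to 48.9 and 67.6 (2.11). CHIL, a helper of the enzyme that opens the pathway, rose from 237.9 and 234.5 to 670.4 and 519.5 (1.26). Among the genes of anthocyanin decoration, AT5MAT rose by 1.10 on the log2 scale and UF3GT rose from 113.7 and 58.0 to 234.7 and 220.6 (1.31). UF3GT was called in 3 of the 4 fits without 1 sf2 array. DFR, which commits the pathway to anthocyanin, had 147.2 and 105.3 before and 217.3 and 163.5 after cold and did not pass (limma adjusted p = 0.0853), although its arrays did not overlap.

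Genes that make ribosomes and RNA polymerases rose, with 14 of 17 higher, none lower and a median of 0.76. YAO, a nucleolar protein of pre-ribosomal RNA processing, rose from 91.3 and 78.8 to 259.6 and 261.8 (log2 change 1.46 ± 0.11; limma adjusted p = 2.92e-08). IMP4, of the same small-subunit processing machinery, rose from 151.0 and 155.1 to 407.6 and 411.9 (1.33). NRPA1 and NRPA2, the 2 largest subunits of RNA polymerase I, which copies ribosomal RNA genes, rose from 47.6 and 51.7 to 137.9 and 162.2 (1.34) and from 131.4 and 122.4 to 267.8 and 280.7 (1.02). NRPB12, a small polymerase subunit, rose from 155.3 and 145.7 to 400.3 and 359.9 (1.25). For 12 of the 14, the call stood in each fit without 1 sf2 array.

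Among chaperones 11 of 20 rose and 4 fell, with a median of 0.46. Over all probe sets 19.8% were called higher and 22.9% lower, so the share of falls was near that of all. Hsp70-2 rose from 119.4 and 158.5 to 509.6 and 561.0 (log2 change 1.84 ± 0.14), and Hop2, a co-chaperone that links HSP70 to HSP90, from 130.2 and 135.7 to 476.3 and 451.1 (1.69). BOB1, a small chaperone needed for development and heat tolerance, rose from 87.7 and 90.9 to 316.5 and 279.7 (1.57). The exchange factors of HSP70 in the Fes1 family did not move alike. Fes1A rose from 67.8 and 68.6 to 199.4 and 222.4 (1.43), whereas Fes1B fell from 87.8 and 76.1 to 37.5 and 55.8 (-0.66) and Fes1C from 57.4 and 69.1 to 36.1 and 38.9 (-0.56).

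In mitochondrial respiration and related steps, 6 of the 12 genes examined rose and 2 fell (median 0.30). Over all probe sets 19.8% were called higher and 22.9% lower. SDH1-1, the catalytic subunit of succinate dehydrogenase, rose from 205.4 and 190.8 to 466.0 and 493.3 (log2 change 1.21), and CYTC-2, the electron carrier cytochrome c, from 190.9 and 198.7 to 385.2 and 405.3 (0.96). The cytosolic isocitrate dehydrogenase cICDH fell from 1503.3 and 1526.7 to 677.4 and 750.8 (-1.07). The other fall, that of ICDH (-0.37; limma adjusted p = 0.0307), was called in none of the 4 fits without 1 sf2 array.

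Of 18 sugar transporters 5 rose and 5 fell (median 0.05), shares near the 19.8% and 22.9% of all probe sets. SWEET13, a plasma-membrane sucrose exporter, rose from 51.5 and 60.0 to 342.5 and 325.3 (log2 change 2.29), and TMT2, which loads sugar into the vacuole, from 90.8 and 92.8 to 393.3 and 491.2 (2.08). SWEET17 and SWEET16, carriers of the vacuole membrane, fell from 353.8 and 371.0 to 106.1 and 106.9 (-1.63) and from 93.1 and 79.1 to 38.3 and 31.1 (-1.01). SFP1, a sugar-porter family member, fell from 320.2 and 285.7 to 65.8 and 66.2 (-1.96). Among starch and sucrose enzymes 4 of 10 rose and 3 fell, and 2 rose without control array 2. APL3, a regulatory subunit of the enzyme that makes ADP-glucose for starch, rose from 35.0 and 35.5 to 301.2 and 196.0 (2.34).

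**Figure D2:**
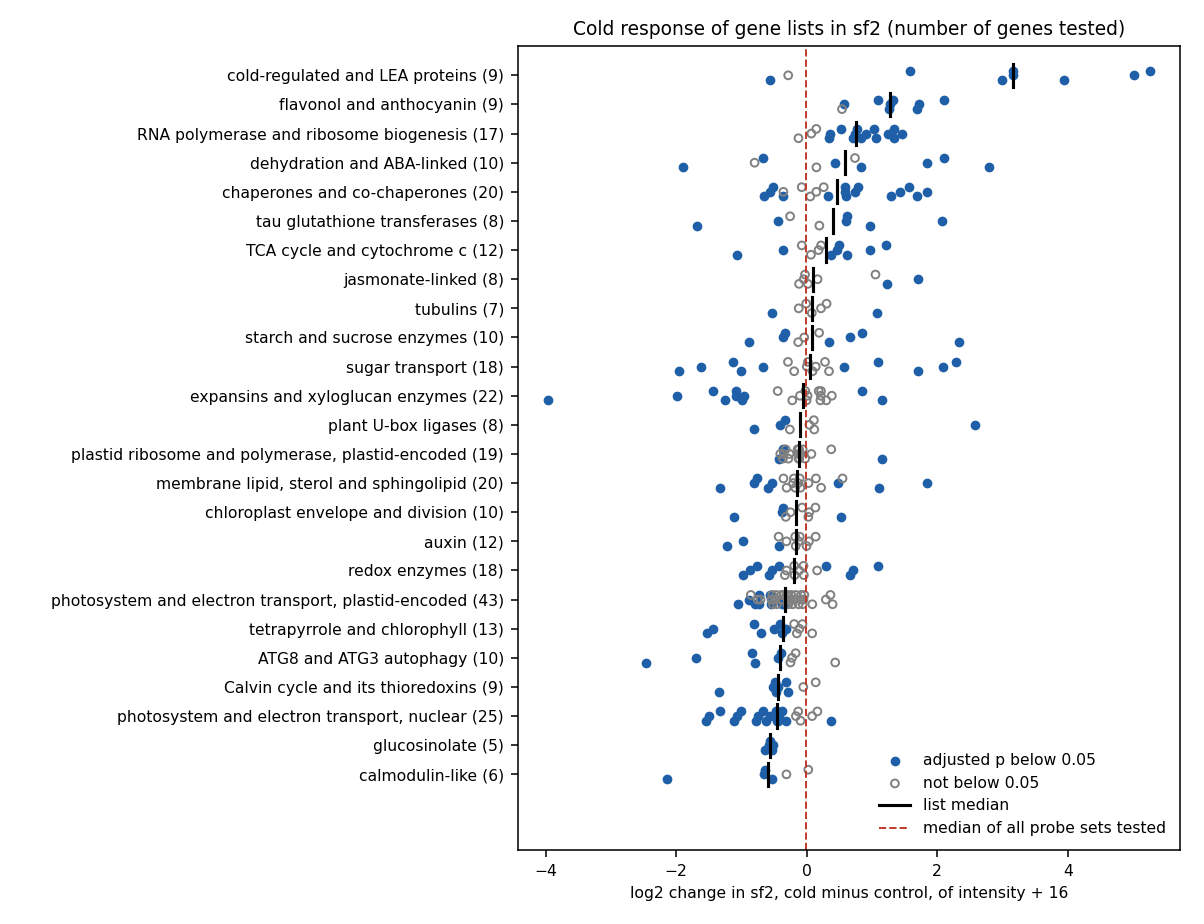
Log2 change in sf2 (horizontal axis, cold minus control) of each tested member of 25 gene lists, filled where limma's adjusted p was below 0.05, with the median of each list as a black bar. The cold-regulated list has its median at 3.16, and the dashed line at -0.018 is the median of all probe sets tested.

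Nuclear genes of photosynthesis were called lower more often than the 22.9% of all probe sets. Of 25 nuclear photosystem and electron transport genes, 19 were lower, 1 was higher and 5 did not pass (median -0.46), and 14 calls stood in each fit without 1 sf2 array. LHCB4.2, a minor antenna protein (CP29) of photosystem II, fell from 2752.9 and 2544.2 to 865.1 and 934.7, a log2 change of -1.54 ± 0.21 (SE, 2 arrays against 2; limma adjusted p = 1.31e-05). Its paralog LHCB4.1 fell less, from 3397.2 and 3317.9 to 2438.8 and 2414.7 (-0.47 ± 0.12), and the third paralog LHCB4.3 fell from 710.6 and 385.2 to 248.9 and 233.8 (-1.07). The replicate controls of LHCB4.3 differed widely, and its call was lost in 1 of the 4 fits without 1 sf2 array.

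Factors that assemble or repair the photosystems fell too. LPA2, an assembly factor of photosystem II, fell from 439.0 and 367.3 to 119.2 and 145.4 (log2 change -1.50), PAM68 from 229.0 and 207.4 to 92.3 and 91.4 (-1.12), and the repair protein PSB27 from 2230.2 and 2165.1 to 1016.1 and 1148.7 (-1.01). NdhS, a subunit of the chloroplast NDH complex, fell from 942.1 and 1006.7 to 408.1 and 346.8 (-1.33). TAAC, an ATP/ADP carrier, was the single rise, from 104.0 and 101.0 to 136.3 and 139.5 (0.38), and it was called in none of the fits without 1 sf2 array.

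Calvin cycle genes and their thioredoxins gave 7 falls and no rise among 9 (median -0.44). TRXF2, a thioredoxin that activates Calvin cycle enzymes in light, fell from 749.0 and 715.1 to 289.5 and 264.9 (log2 change -1.35 ± 0.13; limma adjusted p = 4.41e-07). The remaining 6 falls were small, from -0.28 to -0.51. They include PRK, which remakes the carbon acceptor of the cycle, at 2763.5 and 2426.0 before and 1864.2 and 1828.1 after cold, and RCA, the activase of Rubisco, at 3076.1 and 2890.0 before and 2130.9 and 2035.5 after cold. The number of falls was 1 without control array 1 and 3 without cold array 2, TRXF2 being the member whose call stood in all 4 fits.

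Tetrapyrrole and chlorophyll synthesis showed 8 falls, no rise and 5 members that did not pass (median -0.37). HEME1, uroporphyrinogen decarboxylase, fell from 464.6 and 460.9 to 139.7 and 161.0 (log2 change -1.53 ± 0.17), whereas its paralog HEME2 fell from 836.3 and 731.1 to 420.3 and 464.0 (-0.80). CHLM, the methyltransferase of the magnesium branch that leads to chlorophyll, fell from 1289.1 and 1119.8 to 408.9 and 460.0 (-1.44 ± 0.17; limma adjusted p = 2.88e-06). PORB, which carries out the light-driven step, stayed near its control values, at 1157.1 and 1109.4 before and 1076.1 and 1088.9 after cold.

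Genes encoded in the plastid genome itself were called lower about as often as probe sets in general. Among 43 photosystem, cytochrome, NDH and ATP synthase genes of the plastid, 11 fell, none rose and 32 did not pass (median -0.34), where 22.9% of all probe sets were called lower. The groups did not overlap, in either direction, on 38 of the 43 probe sets, and on 73.0% of all probe sets. On 35 of the 43 both cold arrays lay below both control arrays. The share of all probe sets lying that way was not counted, so nothing is read from the 35. psaA, a core protein of photosystem I, had 1522.2 and 1699.5 on the control arrays and 540.8 and 1093.8 on the cold arrays (log2 change -1.05 ± 0.27; limma adjusted p = 0.00435). The 2 cold arrays thus differed from each other, and cold array 1 lay below cold array 2 on 30 of the 43 probe sets.

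psbE and psbF, the subunits of cytochrome b559 in photosystem II, had replicates that lay closer. psbE went from 1281.0 and 1484.7 to 804.2 and 836.2 (log2 change -0.74) and psbF from 1714.0 and 1807.3 to 1142.3 and 1249.0 (-0.55), and these were the 2 calls that stood in each fit without 1 sf2 array. Without cold array 1 the change of psaA was -0.55 and was not called (limma adjusted p = 0.12). The number of falls was 7 without control array 1, 4 without control array 2, 2 without cold array 1 and 10 without cold array 2. It was 6 with arrays scaled to their medians and 31 when the spread was estimated from the sf2 arrays alone. rbcL, the large subunit of Rubisco, was not lower, at 627.5 and 627.1 before and 872.2 and 790.8 after cold (limma adjusted p = 0.11).

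The list median of -0.34 stood beside -0.10 in wt, 0.12 in sf6 and -0.15 in sf3, and no member's difference from wt or from the mean of these lines was called. Brightness was set beside this result. Over 451 other probe sets with a mean intensity of at least 1000, the median change in sf2 was -0.21, with 41.7% called lower. The corresponding medians were -0.07 in wt, -0.05 in sf6 and -0.07 in sf3. Nuclear photosynthesis genes were not left out of these probe sets. Over the 24 plastid-encoded genes of that brightness the sf2 median was -0.31, with 33.3% called lower. Over the 19 dimmer ones it was -0.49, with 15.8% called lower. Quantile normalization gives every array the same distribution of values. With it RCA changed by -0.23 instead of -0.51, and SBPASE by -0.28 instead of -0.44. Array maxima were 3931.9 and 3860.3 for untreated sf2 and 3420.8 and 3250.9 for cold sf2. The part of brightness in the small falls of bright genes such as RCA, PRK and psbF was not tested. Of 19 plastid-encoded ribosomal and polymerase genes 1 rose and 2 fell, and no fall was called without control array 1 or without cold array 1. The rise was that of rps16, from 193.0 and 159.9 to 404.0 and 419.4 (1.16 ± 0.15; limma adjusted p = 6.11e-06).

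**Figure D3:**
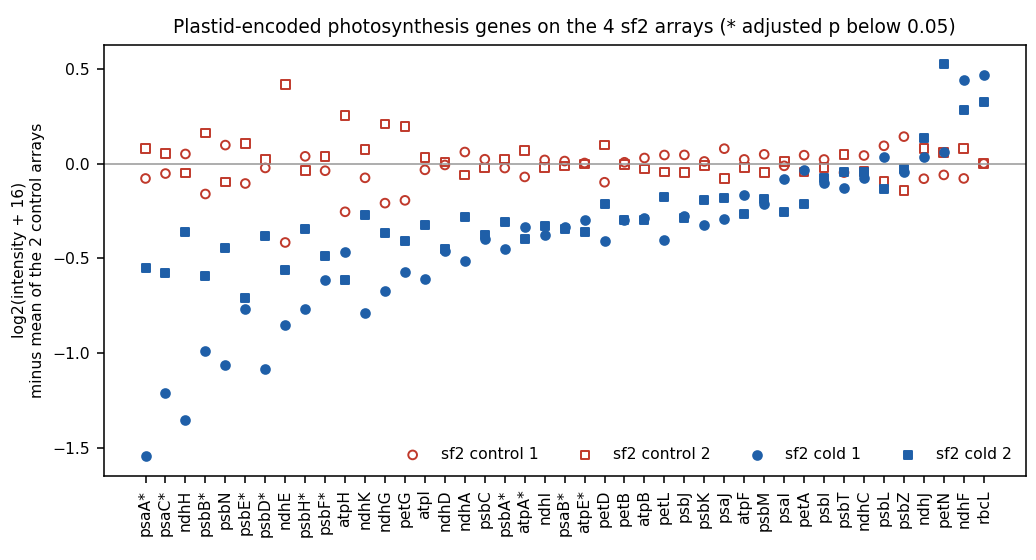
Level of 43 plastid-encoded photosynthesis genes on each sf2 array as log2(intensity + 16) minus the mean of the 2 control arrays, ordered by change. At the left, from psaA to psbD, cold array 1 (filled circles) mostly lies well below cold array 2 (filled squares), and both lie below the controls.

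SFR2 acts on galactolipids. Of 13 listed genes of galactolipid and sulfolipid synthesis, none had a probe set named in the annotation used, so they were not analysed here. Of 20 genes of phospholipid, sterol and sphingolipid metabolism, 3 rose, 5 fell and 12 did not pass (median -0.15), shares near those of all probe sets (19.8% higher and 22.9% lower). CCT2, an enzyme of phosphatidylcholine synthesis, rose from 59.0 and 55.5 to 236.4 and 255.0 (log2 change 1.84 ± 0.14; limma adjusted p = 1.57e-08), while its paralog CCT1 had 95.6 and 92.8 before and 82.4 and 91.7 after cold. UGT80B1, a sterol glucosyltransferase, rose from 72.7 and 71.5 to 173.5 and 175.0 (1.11). SDP1, a lipase that breaks down storage oil, fell from 92.0 and 84.5 to 22.7 and 28.8 (-1.32). PMEAMT, which methylates phosphoethanolamine on the way to choline, fell from 873.9 and 738.4 to 445.5 and 453.8 (-0.81).

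LCB2 and TSC10A, enzymes of sphingolipid base synthesis, were among the 5 that fell, LCB2 from 170.7 and 182.6 to 105.3 and 118.8 (log2 change -0.59) and TSC10A from 115.0 and 114.7 to 59.8 and 62.6 (-0.76). Among 10 chloroplast envelope and division genes 1 rose, 3 fell and 6 did not pass, and without control array 1 there was 1 fall. Of all probe sets, 19.8% were called higher and 22.9% lower. SECE1, part of a thylakoid protein translocase, fell from 404.8 and 333.7 to 163.3 and 159.1 (-1.11). CHL, a plastid lipocalin, rose from 370.4 and 325.2 to 519.9 and 489.9 (0.52). FTSZ2-2, a division-ring protein, had 207.6 and 169.5 before and 155.7 and 130.3 after cold, and its call (-0.36; limma adjusted p = 0.0159) was lost without control array 1 (-0.23) and without cold array 2 (-0.25).

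More cell wall loosening genes fell than rose. Of 22 expansins and xyloglucan enzymes 8 fell, 2 rose and 12 did not pass (median -0.06). Of all probe sets, 22.9% were called lower and 19.8% higher. Beside EXPA8, EXLA1 fell from 283.7 and 207.5 to 48.0 and 51.2 (log2 change -1.98 ± 0.37) and XTH16, which cuts and rejoins xyloglucan, from 279.1 and 223.8 to 79.2 and 84.4 (-1.44). EXLA2 rose from 36.4 and 26.4 to 70.1 and 66.9 (0.84), and XTH20 rose from 13.3 and 11.5 to 52.7 and 41.9 (1.15). Of 12 auxin genes 3 fell, a share near the 22.9% of all probe sets, and none rose. WES1, an auxin-conjugating enzyme, fell from 88.2 and 114.2 to 35.7 and 31.8 (-1.23), and the auxin-response repressor IAA18 from 190.3 and 193.0 to 85.0 and 93.8 (-0.98).

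Autophagy genes fell in 6 of 10 cases and rose in none (median -0.41), where 22.9% of all probe sets were called lower. ATG8E, a ubiquitin-like protein attached to the autophagosome membrane, fell from 292.7 and 278.1 to 36.9 and 40.8 (log2 change -2.46 ± 0.19; limma adjusted p = 2.12e-08). ATG8F fell from 744.8 and 747.3 to 224.5 and 211.7 (-1.70), and ATG8C from 208.5 and 237.7 to 122.4 and 113.1 (-0.84). ATG8D did not pass, at 110.7 and 118.9 before and 97.9 and 102.5 after cold (-0.17; limma adjusted p = 0.273).

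All 5 glucosinolate genes tested fell, with log2 changes from -0.52 to -0.64, and 4 of these calls stood in each fit without 1 sf2 array. GTR1, a glucosinolate importer, went from 256.7 and 234.0 to 149.2 and 168.0 (log2 change -0.58), and BCAT4, which starts methionine chain elongation, from 956.2 and 1042.5 to 588.7 and 682.7 (-0.64). Among 6 calmodulin-like genes 4 fell and none rose, led by CML30, from 83.6 and 76.2 to 11.4 and 1.4 (-2.13). Fewer, 2, were called without control array 2 or without cold array 1. Of 8 plant U-box ubiquitin ligases 1 rose and 3 fell, where 19.8% of all probe sets were called higher and 22.9% lower. The rise was large, PUB19 going from 31.1 and 28.2 to 233.2 and 280.4 (2.57 ± 0.19; limma adjusted p = 1.17e-08). PUB26, which in Arabidopsis acts in the control of cold signalling, fell from 56.8 and 46.4 to 28.2 or lower on the cold arrays (-0.81). It was the 1 fall that stood without control array 1, without cold array 1 and without cold array 2.

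Redox and detoxification genes went both ways. Of 18 redox enzymes 4 rose and 6 fell, and of 8 tau glutathione transferases 4 rose and 2 fell, or 1 fell without control array 1 or without cold array 2. For these lists and the tubulins below, the shares over all probe sets were 19.8% higher and 22.9% lower. GR1, glutathione reductase of the cytosol, rose from 350.1 and 404.8 to 809.8 and 829.5 (log2 change 1.09), whereas the sulfiredoxin SRX fell from 369.5 and 336.7 to 206.7 and 166.1 (-0.87). GSTU25 rose from 10.8 and 16.1 to 171.8 and 64.8 (2.07), with cold arrays that differed widely, and GSTU18 fell from 311.5 and 314.5 to 83.6 and 89.8 (-1.68). Of 7 tubulins 1 rose and 1 fell, and 2 rose without cold array 1. TUB9 rose from 381.1 and 417.6 to 845.7 and 874.5 (1.08), and TUB6 fell from 301.4 and 324.7 to 225.7 and 198.3 (-0.53).

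Jasmonate-linked genes were called in 2 of 8 cases, both higher, where 19.8% of all probe sets were called higher. JMT, which makes methyl jasmonate, rose from 15.9 and 10.7 to 70.4 and 38.0 (log2 change 1.23). The defensin PDF1.2 had 49.6 and 80.0 on the control arrays and 158.7 and 368.1 on the cold arrays (1.71 ± 0.59; limma adjusted p = 0.0278), and the call was lost without control array 1 (1.43) and without cold array 2 (1.14). Its close paralog PDF1.2b, whose transcript the probes may not separate from it, had 305.1 and 238.6 before and 397.1 and 836.2 after cold and did not pass (limma adjusted p = 0.109). PDF1.2 changed by -1.32 in wt, 0.79 in sf6 and -0.43 in sf3, and the difference of sf2 from the mean of these was not called (2.03; limma adjusted p = 0.496).

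The response of sf2 was set against that of the other lines to ask whether the same probe sets moved. Cold calls in either direction covered 47.1% of probe sets in wt, 45.4% in sf6 and 44.2% in sf3. Probe sets called at least 2-fold higher by cold in wt, sf6 and sf3 alike numbered 653, and 649 of them (99.4%) were called higher in sf2, where 19.8% of all probe sets were. Of the 658 called at least 2-fold lower in all of the other lines, 651 (98.9%) were called lower in sf2, where 22.9% of all probe sets were. None was called the opposite way. The calls of all lines rest on the same estimate of the spread of a probe set. Choosing calls in the other lines thus by itself favours a call in sf2. At least 2-fold calls in sf2 covered 588 of the raised set, which is 90.0% of that set and 69.9% of the 841 in sf2, and 579 of the lowered set, which is 88% of it and 72.3% of the 801 in sf2.

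The median change of the raised set was 1.47 in sf2, 1.57 in wt, 1.57 in sf6 and 1.5 in sf3. For the lowered set the medians were -1.44, -1.66, -1.52 and -1.55. In 460 of the raised (70.4%) and 506 of the lowered probe sets (76.9%) the change in sf2 was smaller than the mean of the other lines. These sets were chosen for a large change in the other lines and not in sf2, which by itself favours a smaller value in sf2, so nothing is read from that share. The sf2 medians were alike on each cold array taken alone, at 1.45 and 1.49 for the raised set and -1.44 on both arrays for the lowered set.

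**Figure D4:**
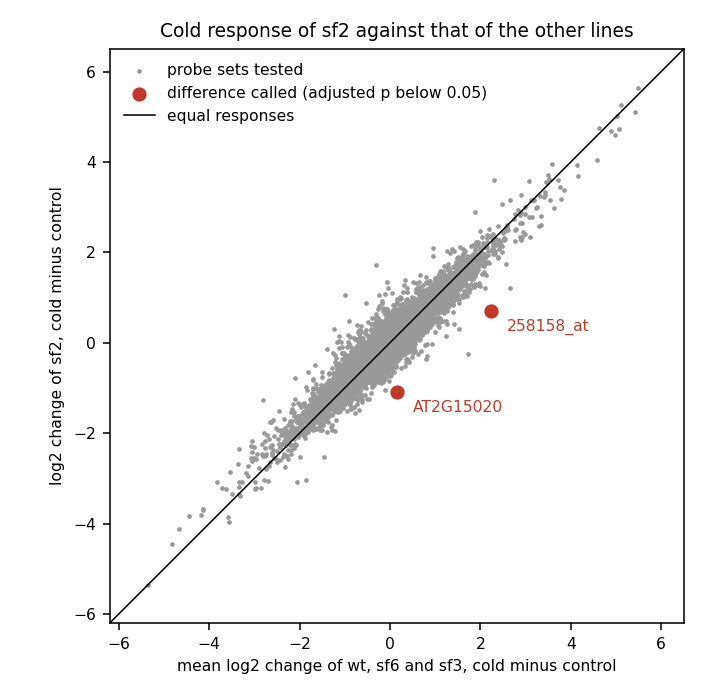
Log2 change in sf2 (vertical axis) against the mean log2 change in wt, sf6 and sf3 (horizontal axis) for each probe set tested, with a line of equal responses. Most points lie along the line, and the 2 red points are AT2G15020 and a probe set listed with no gene, whose differences were called.

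Seen from the other side, 8 of the 841 larger rises and 3 of the 801 larger falls of sf2 were called in the same direction in no other line. A call in sf2 and none elsewhere does not show a difference, and the test of the difference from the mean of the other lines passed for 1 of these 11, AT2G15020. A further 1, a probe set listed with no gene, passed the test against wt alone (1.57; limma adjusted p = 0.0329). The other named ones were chosen here after their values were seen. AT1G30700 had 1.1 and 10.0 before and 42.0 and 25.4 after cold (log2 change 1.22), against changes between -0.15 and 0.04 in the other lines, and its difference was not called (1.26; limma adjusted p = 0.398). AT1G10330 went from 39.7 and 37.7 to 7.4 and 6.9 (-1.24), against -0.72, -0.52 and -0.12 in wt, sf6 and sf3, and its difference was not called either (limma adjusted p = 0.647). The remaining named genes, psaA and PDF1.2, are described above.

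The difference of responses itself, sf2 minus the mean of wt, sf6 and sf3, was called for 2 of the 17059 probe sets (0.0117%), both lower in sf2, while 1249 had an unadjusted p below 0.05. AT2G15020, whose function the annotation does not name, had 154.1 and 205.8 on the sf2 control arrays and 72.5 and 76.2 on the sf2 cold arrays, a fall of -1.11 (limma adjusted p = 3e-05). Its change was 0.68 in wt, -0.24 in sf6 and 0.05 in sf3. The difference from their mean was -1.27 (limma adjusted p = 0.0283) and that from wt alone -1.78. Untreated sf2 stood highest, with a mean of 180.0 against 67.6 in wt, 101.8 in sf6 and 85.0 in sf3, and cold brought all lines to between 74.4 and 116.4.

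The other called probe set, which is listed with no gene, differed in the cold groups instead. It rose in every other line, from 55.4 to 501.6 in wt, 72.4 to 376.7 in sf6 and 142.4 to 514.0 in sf3 (means of 2 arrays), and in sf2 it went from 86.8 and 119.5 to 173.2 and 176.3. In sf2 the response was lower than the mean of the other lines by -1.545 (limma adjusted p = 0.0146). Neither call stood in every fit that left out 1 array. Without sf2 cold array 1, and likewise without sf2 cold array 2, no probe set was called, and without sf2 control array 2 the AT2G15020 difference was -1.08 (limma adjusted p = 0.24). Leaving out wt cold array 2, sf6 cold array 2, sf3 cold array 1 or sf3 cold array 2 left 1 call each. Without wt control array 1 or wt cold array 1 there were 8 calls, and without sf3 control array 1 there were 6. Against sf6 alone 0 probe sets were called by limma (933 at an unadjusted p below 0.05), and against sf3 alone 4 were (0.0234%), all higher in sf2.

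Against wt alone, 22 differences were called (0.129%), 9 higher in sf2 (0.0528%) and 13 lower (0.0762%). The largest named one was AT4G01870, which went from 93.9 and 126.5 to 1526.4 and 1503.9 in sf2 (log2 change 3.61), with a change of 1.39 in wt, 3.72 in sf6 and 1.79 in sf3. The difference was 2.22 from wt, 1.82 from sf3 and -0.11 from sf6, and the last was not called (limma adjusted p = 0.975). AT3G09440, an HSP70 gene, rose in sf2 from 747.3 and 935.7 to 2044.2 and 2114.8 (1.30) and in wt by 2.60, a difference of -1.30 (limma adjusted p = 0.0054). Its cold means were alike, at 2079.5 in sf2 and 2364.7 in wt, and its untreated means were 841.5 in sf2, 773.8 in sf6, 706.2 in sf3 and 376.0 in wt, so the untreated wt arrays lay below those of all 3 mutants. Without sf2 cold array 1 its difference was -1.28 and was not called (limma adjusted p = 0.0538). AT1G06000, a locus of the flavonol list, rose by 1.69 in sf2, 2.69 in wt, 1.78 in sf6 and 1.75 in sf3.

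**Figure D5:**
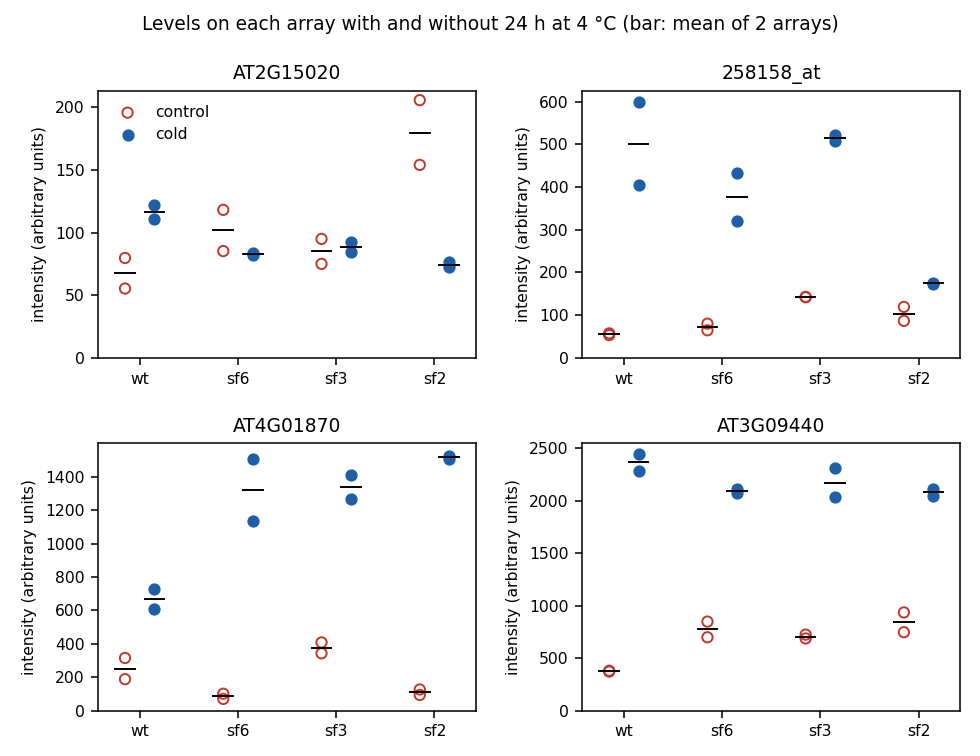
Intensity (arbitrary units, linear axes from 0) of 4 probe sets on each array of wt, sf6, sf3 and sf2, control in open and cold in filled circles, with a bar at the mean of 2 arrays. In AT2G15020 untreated sf2 stands apart at 154.1 and 205.8, in the probe set without a gene cold sf2 does at 173.2 and 176.3, and in AT3G09440 untreated wt is the low group.

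The counts against wt rest on single arrays. Without wt control array 1, whose title carries a repeat mark, 56 differences were called, and without wt control array 2, 4 were. The number was 6 without wt cold array 2, 6 without either sf2 control array, 3 without sf2 cold array 1 and 5 without sf2 cold array 2. Without wt cold array 1 it was 32, and the balance turned to 23 higher and 9 lower. Among list members, the difference from wt was called for AT1G06000 and AT3G09440, and no list member's difference from the mean of the other lines was called.

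Of 10 listed leaf genes, 2 had a probe set named in the annotation, RCA and SBPASE. Both were bright on all sf2 arrays, at 1664.3 or higher. Both fell, with a median change of -0.48 beside -0.26 in wt, -0.22 in sf6 and -0.29 in sf3. With quantile normalization the sf2 changes were smaller, at -0.23 for RCA and -0.28 for SBPASE. Neither call stood in every fit without 1 sf2 array. Of 3 root genes tested, PYK10, a root and seedling glucosidase, fell from 1285.9 and 1440.2 to 840.9 and 856.4 (log2 change -0.67), and the root-hair expansins EXPA7 and EXPA18 lay between 16.3 and 36.6 on all 4 sf2 arrays and did not pass. The summed level of the 3 genes was 1330.7 and 1483.2 without cold and 895.3 and 909.3 with it. Of 2 pollen and 2 seed genes 1 was called, PLIM2b (-0.41), and that call was lost without control array 2 (-0.25), without cold array 1 and without cold array 2. Array medians were 42.5 and 43.75 for untreated and 41.9 and 41.5 for cold sf2, and each array correlated at 0.9904 or 0.9913 with its replicate over log2 values. The cold arrays were closest to each other. Untreated sf2 arrays 1 and 2 were closest to the same-numbered untreated sf6 arrays, at 0.9912 and 0.9904, so they were no closer to their own replicate.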

How the data were processed

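RNA from pooled plants was hybridised, after biotin labelling, to Affymetrix ATH1 arrays, per the labels' protocols. The authors deposited 1 linear intensity per probe set and array, with the same trimmed mean on each array; how the authors summarised probes is not given in the sources used here. Of 22810 probe sets, 64 controls and those with a mean intensity below 12.9 (the 25th percentile) were left out, and 17059 were tested. The deposited intensities were taken to log2(intensity + 16), and limma 3.58.1 in R 4.3.3 (lmFit, then eBayes with a trend) was fitted to 20 arrays of 10 groups, which left 10 residual degrees of freedom. The groups were untreated and cold wt, sf6, sf3 and sf2, and drought-treated wt and sf6. P-values were adjusted by Benjamini-Hochberg over all probe sets tested, with a threshold of 0.05. The method was tested on simulated data.

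Genes were named from the platform annotation (13513 probe sets with 1 gene, 503 with several, 8794 with none), and 13436 probe sets were tied to a locus in the RefSeq table TAIR10.1, used for names. The probe set with the highest mean stood for a gene. Named genes were the 12 largest called rises and falls, up to 5 called differences each way, and up to 4 members of each list plus those that moved against it, all with groups that did not overlap. Members that did not pass are named by choice after their values were seen, as are further called members. Members and lists were chosen with earlier results of these data known. Alternatives changed the added constant, filter, scaling, arrays fitted, weights, replicate block and single arrays. Every column of values was mapped to a sample, and the 2 arrays a group limit the precision. Promoter sequences were not analysed here.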

Additional observations from a re-analysis of the deposited data

Results flagged for a closer look

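The cold response of sf2 differed from that of another group, by a test of the difference itself in limma, for the following named genes. Against wt it was higher in sf2 for AT4G01870 (2.22), AT1G52200 (1.64), AT1G32460 (0.96) and AT1G63880 (0.84), and lower for AT2G15020 (-1.78), AT5G05220 (-1.46), AT3G09440 (-1.30), AT1G06000 (-1.0) and AT5G02230 (-1.0), all on the log2 scale. Against the mean of wt, sf6 and sf3 it was lower for AT2G15020 (-1.27).

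None of the differences of these genes from sf6 was called. AT1G52200 rose from 98.4 and 133.8 to 282.0 and 360.5 in sf2 (1.35), by 1.37 in sf6 and by 0.81 in sf3, where wt had means of 179.6 and 146.9. AT1G32460 fell from 402.8 and 416.9 to 116.8 and 101.3, a smaller fall than in wt, where the means were 573.6 and 71.8, and its log2 change was -1.77 in sf2, -1.85 in sf6, -2.08 in sf3 and -2.73 in wt. AT5G02230 fell from 177.3 and 183.4 to 34.0 and 36.1, while wt went from 97.4 to 43.0, with changes of -1.94 in sf2, -1.34 in sf6, -1.55 in sf3 and -0.94 in wt. AT1G63880 (adjusted p = 0.0847 in limma) and AT5G05220 (adjusted p = 0.156 in limma) were not called changed in sf2 itself. AT1G63880 fell by 0.64 in wt and was not called in sf6 or sf3. AT5G05220 rose by 1.10 in wt and by 0.95 in sf6, and its change of 0.34 in sf3 was not called. It was dim, at 19.3 and 12.3 before and 6.8 and 10.8 after cold in sf2. Its difference from wt was -3.26 with 1 added, and -0.55 and not called with 64 added. Without the filter on dim probe sets, the differences of AT1G52200, AT1G32460, AT5G05220, AT1G06000 and AT5G02230 from wt were not called.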

How the results depend on the processing

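No named result changed sign under any alternative. For the cold response of sf2, 1850 of 1950 values over 150 named results kept their side of the threshold, 86 lost the call and 14 gained it. Calls numbered 7123 to 8221 over the alternatives that kept all sf2 arrays. Scaling arrays to their medians gave 3717 higher and 3444 lower calls, with the median of all probe sets at 0.018. Calls of at least 2-fold numbered 440 higher and 366 lower with 64 added before the logarithm, and 1219 lower with 1 added. Without each sf2 array in turn there were 5706 to 5842 calls, 2657 to 2816 higher and 3020 to 3070 lower, of which 837 to 886 and 803 to 829 were at least 2-fold.

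For sf2 minus wt, the calls (higher, lower) were 8 (3, 5) without the filter on dim probe sets, 35 (25 lower) with arrays scaled to their medians, 8 (4, 4) with the compared groups alone and 34 (19 higher) without both arrays whose titles carry a repeat mark, with 14 higher under array quality weights. Leaving out 1 array gave 3 to 56 calls, 1 to 33 higher and 2 to 23 lower. For sf2 minus the mean of the other lines, the calls were 0 (0 lower) without the filter, 7 (7 lower) with median scaling, 1 (1 lower) with the compared groups alone, 9 (3 higher, 6 lower) with quality weights and 5 (2 higher) without the repeat-marked arrays. Leaving out 1 array gave 0 to 8, 0 to 3 higher and 0 to 5 lower. Added after seeing the data, the comparison with sf6 alone gave 0 (0 lower) and that with sf3 alone gave 4 (4 higher, 0 lower). The cause of these shifts in the counts was not tested.

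Of 153 values of the 9 named differences from wt, 56 lost the call, as did 11 of 27 for AT2G15020 against the mean. Of 910 counts over the gene lists, 72 moved by over 1.5 times. With the replicate number as a block there were 7216 calls for sf2 (3333 higher, 3883 lower), 24 for the difference from wt (10 higher, 14 lower) and 2 for that from the mean (0 higher, 2 lower). Within a line, deviations of same-numbered control and cold arrays correlated at 0.0325 in sf2, 0.0798 in wt, -0.00379 in sf6 and 0.164 in sf3. These low values show no clear pairing of control with cold arrays inside a line. They do not bear on a batch shared by same-numbered arrays of different lines. With 2 arrays a group, a dim gene's change is limited by the added constant.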

Other observations

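Other named genes outside the lists also changed at least 2-fold in sf2, and those given here were chosen after their values were seen. Each was called in every fit without 1 sf2 array. They are single genes and stand for no group. SKU5, a glycoprotein of directional root growth, fell from 832.9 and 751.3 to 110.2 and 129.7 (log2 change -2.57). EXO, which promotes growth under brassinosteroid control, fell from 617.9 and 334.3 to 57.8 and 74.7 (-2.53), and the receptor kinase THE1, which monitors wall integrity, from 187.7 and 147.1 to 46.7 and 47.7 (-1.53). NAI1, a transcription factor needed for the endoplasmic reticulum body, which stores the glucosidase PYK10, fell from 40.3 and 37.8 to 8.0 and 5.7 (-1.27), and NAI2, a protein of that body, from 216.7 and 252.0 to 75.5 and 77.7 (-1.43). JAL34, a lectin of the jacalin family, fell from 388.7 and 532.9 to 141.0 and 167.8 (-1.47).

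Both subunits of methylcrotonyl-CoA carboxylase, an enzyme of leucine breakdown, fell, MCCA from 96.8 and 91.1 to 14.6 and 18.7 (-1.75) and MCCB from 229.8 and 187.5 to 83.8 and 74.7 (-1.23). AKINBETA1, a subunit of the energy-sensing kinase SnRK1, fell from 210.5 and 217.0 to 33.3 and 32.0 (-2.24). Among rises were SERPIN1, a protease inhibitor (147.5 and 180.6 to 796.7 and 921.5, 2.28), NDB2, an external NADH dehydrogenase of mitochondria (39.5 and 55.5 to 268.4 and 298.1, 2.25), and the tetraspanin TET3 (111.0 and 137.1 to 388.0 and 403.0, 1.56).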
